A study of Mus musculus with 12 samples.

Results

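Surface ectoderm lying over an optic vesicle with deleted Bmp4 (KO) was compared with surface ectoderm over a wild-type optic vesicle (WT) in mouse embryos, to ask how the prospective lens differs when the vesicle beneath it cannot make this signal. The members are the 6 arrays labelled as surface ectoderm, 3 KO and 3 WT, of 12 arrays in the series, and every one of the 11924 genes with a named and detected probe was compared between them. Embryos of both genotypes were of mixed C57BL6 and FVB background at E10.5. They were frozen, cut at 10 µm, stained with eosin, and the ectoderm over the vesicle and the distal vesicle itself were cut out by laser. RNA (15 ng) was amplified, labelled with biotin and hybridised to Illumina bead arrays, on which each probe is read from many beads. The other 6 arrays hold the distal optic vesicle of the same genotypes. The Cre line or promoter that drives the deletion is not named in the labels, and neither is the genotype of the WT embryos beyond wild type. According to the study design, tissue came from 3 embryos of each genotype and RNA was pooled, and it is not said whether each array stands for 1 embryo or for a repeat of the pool. P-values therefore cover the spread between arrays, which may be technical. The main fit took this spread from all 12 arrays, vesicle arrays included.

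The lens forms from head surface ectoderm that touches the optic vesicle. The contact area thickens into a placode under the transcription factors Pax6, Sox2 and Six3 and under BMP and FGF signals, then bends inward and begins to make crystallins, the soluble structural proteins of the lens. Ectoderm outside the contact area becomes epidermis and cornea, and Wnt signalling is known to favour that fate over lens. Bmp4, a secreted growth factor of the TGF-beta family, is made by the vesicle, and lens does not form in mouse embryos that lack it. Neural crest mesenchyme, vessels and the future pigment epithelium lie close by, so laser-cut ectoderm can hold some of their cells. In whole-tissue RNA a lower level from fewer cells of a type cannot be told apart from less RNA per cell.

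On the 6 ectoderm arrays 45.0% to 46.7% of probes were detected (detection p below 0.05 against negative controls), the median raw intensity was 87.7 to 118, and the bead standard error was at the median 2.84% to 3.27% of the intensity. Levels below are normalised log2 intensities, with the WT and then the KO values in the order of replicates 1 to 3. Arrays of one genotype correlated across genes at 0.933 to 0.945 in WT and 0.929 to 0.930 in KO, and arrays of different genotypes at 0.899 to 0.915. The epithelial genes Cdh1 (E-cadherin, 11.71 to 12.72), Epcam (8.70 to 9.49) and Krt18 (a keratin of simple epithelia, 9.31 to 10.03) matched the ectoderm label on all 6 arrays. In WT vesicle they stood at 8.09, 5.50 and 6.41. They belong to a list of 16 measured surface ectoderm and epidermis markers, whose mean level was 8.23 to 8.41 on the WT ectoderm arrays. Not every member was bright there, and Wnt6 and Perp averaged 4.58 and 5.86 in WT ectoderm. The label check therefore rests on Cdh1, Epcam and Krt18, not on the whole list.

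The deleted gene was dimmer in WT ectoderm than in WT vesicle (8.26). The brighter Bmp4 probe read 5.90, 6.09 and 6.08 in WT and 5.66, 4.56 and 4.53 in KO, detected on 3 of 3 and 1 of 3 arrays. All KO values lay below all WT values, but the difference of -1.10 ± 0.40 (log2, SE) did not pass (adjusted p = 0.14). A dimmer probe of Bmp4 was detected on no WT array and on 2 of 3 KO arrays and differed by 1.23 in the opposite direction (adjusted p = 0.24 over all probes). The same brighter probe fell by 3.67 in the vesicle. Whether either probe lies inside the deleted part is not stated, so they do not check the ectoderm labels.

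Of the 11924 genes, 593 (4.97%) passed the adjusted p threshold of 0.05 in limma, 306 (2.57%) higher and 287 (2.41%) lower in KO. Among the 593 the change was over 2-fold in 224 higher and 194 lower genes and over 8-fold in 20 and 29. The 3 KO values lay on one side of the 3 WT values in 586 of the 593, and in 19.2% of all genes tested. Of the higher genes 42 were not detected on any WT array, and of the lower genes 43 were not detected on any KO array. The median change over all genes was 0.02. The number that passed was 376 without WT replicate 1, and 450 to 511 without any other single array. With the 6 ectoderm arrays fitted alone, without the spread of the vesicle arrays, it was 240, and with array weights 339. Vesicle arrays of one genotype correlated more closely across genes than ectoderm arrays did, at 0.95 to 0.963. Arrays lay on 2 slides. With slide as a block 579 genes passed, on slide 1 alone (2 arrays per genotype) 19 passed and on slide 2 alone (1 per genotype, with the spread taken from vesicle arrays) 115 passed. Of the 143 genes that are named below and passed, 114 also passed with any 1 of the 6 arrays left out, and for the other 29 the values without the arrays that ended the call are given. Of the 143, 16 that rose were detected on only 1 or 2 WT arrays and 14 that fell on only 1 or 2 KO arrays, so these changes rest in part on signal near background. Another kept probe was present for 70 of the 143, and it passed in the same direction in 32.

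**Figure D1:**
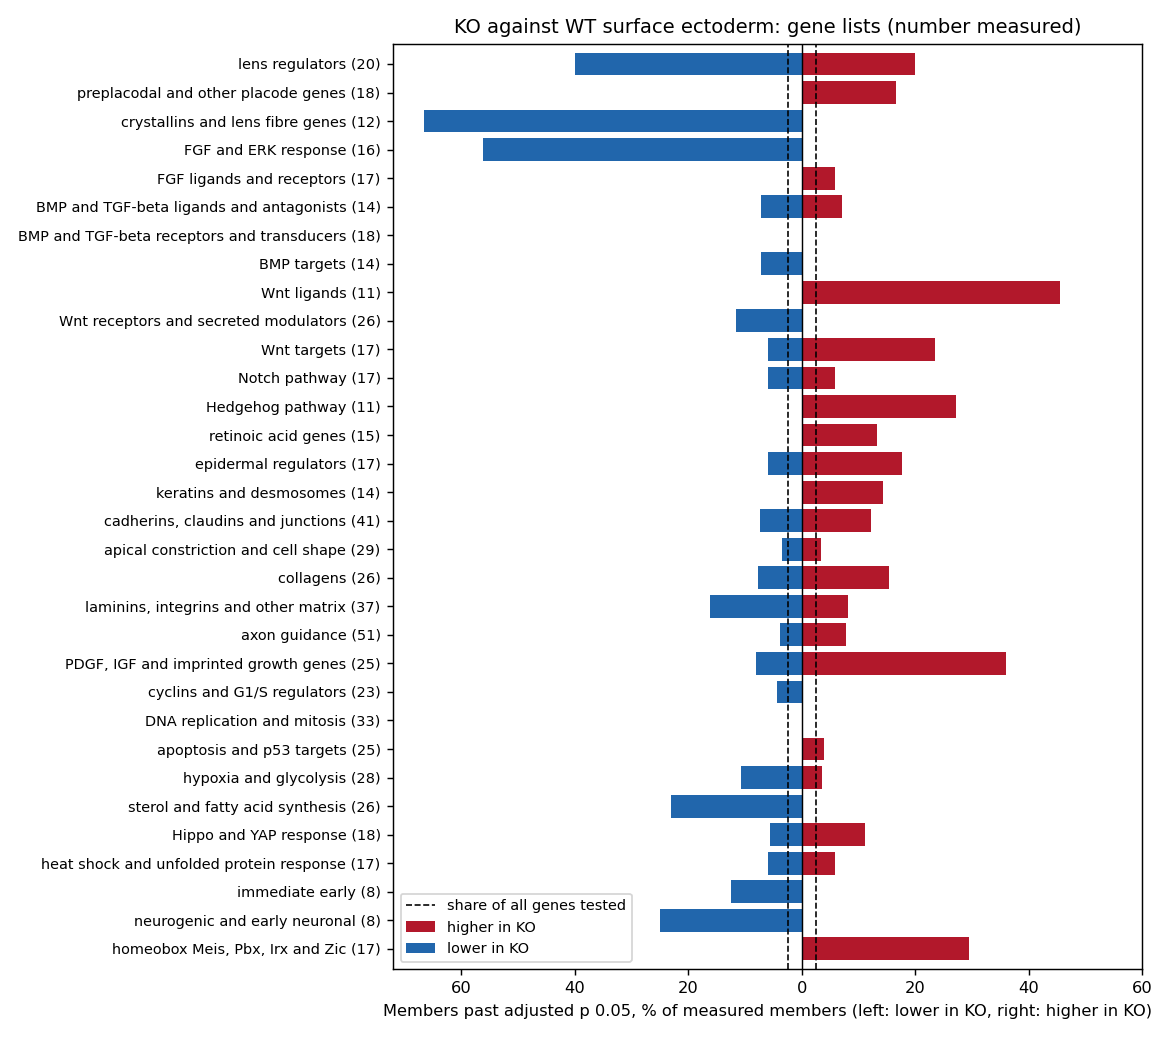
Bars show, for each gene list, the percent of its measured members past adjusted p 0.05, to the left if lower and to the right if higher in KO surface ectoderm. The number measured is in brackets, and the dashed lines mark the share of all genes tested, 2.41% lower and 2.57% higher. Crystallins, FGF and ERK response genes and lens regulators stand furthest to the left, and Wnt ligands and the growth gene list furthest to the right.

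Markers of neighbouring cell types differed between the genotypes and touch several results that follow. Of 13 genes of periocular mesenchyme and neural crest, 6 rose and 1 fell (median 1.36), and the list's mean level was 6.20 to 6.42 in WT and 7.61 to 7.70 in KO. The mesenchymal transcription factor Twist1 stood at 5.05, 5.12 and 5.17 in WT and 7.80, 8.08 and 7.85 in KO, and the cranial mesenchyme factors Alx4 and Foxc2 rose by 3.67 and 3.45. The collagen gene Col3a1 stood at 5.24, 6.84 and 4.48 in WT and 9.54, 9.14 and 9.25 in KO. Each of these 4 genes was higher on every KO array than on every WT array. That was a condition for the 20 largest rises, to which Alx4, Foxc2 and Col3a1 belong. The list member that fell was the receptor gene Pdgfra, by 2.49, from a mean of 10.23 in WT to 7.74 in KO.

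Of 13 pigment epithelium and melanosome genes 6 rose and none fell (median 0.85, or 0.43 with the genes undetected in a group at the bound defined below), with a mean level of 5.99 to 6.12 in WT and 6.97 to 7.21 in KO. Otx2, a homeobox gene of the pigment epithelium and forebrain, went from 5.96, 6.14 and 6.12 to 8.11, 8.46 and 8.42 (adjusted p = 1.3e-05). The melanin pathway enzyme Dct had no detected signal in WT and stood at 7.27, 6.31 and 8.22 in KO, at least 5.70-fold higher, where the bound takes the WT arrays at the lower limit of detection or at the probe's own value if higher. The melanosome genes Trpm1 and Pmel, whose brightest kept probes were also undetected in WT, were at least 2.80-fold and 2.56-fold higher by these probes. Of 2 other kept Trpm1 probes 1 rose by 1.09 and 1 fell by 0.81, from 5.66 in WT to 4.84 in KO, and neither passed. Rab38 rose by 1.97 and Otx1 by 2.05. In KO vesicle Otx2, Dct, Trpm1, Pmel and Rab38 stood higher still, at 10.47, 10.33, 9.86, 10.44 and 8.81, and Otx1 did not (9.10).

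Endothelial genes were near background in WT, with 7 of 11 not detected on any WT array. Of the 11, 5 rose and none fell (median 1.35, or 1.06 at the bound), and the mean level was 4.64 to 4.93 in WT and 5.90 to 6.17 in KO. Pecam1 (CD31), a junction protein of vessels, was at least 2.14-fold and Plvap, a protein of their pores, at least 2.07-fold higher. Of 5 platelet and megakaryocyte genes 3 rose (median 2.74, or 2.32 at the bound, mean level 5.10 to 5.33 in WT and 6.43 to 7.50 in KO), and these 3 were not detected on any WT array. The platelet chemokine Pf4 stood at 9.36, 8.18 and 6.76 in KO, at least 10.1-fold above WT, Ppbp was at least 4.97-fold and the glycoprotein gene Gp5 at least 5.65-fold higher.

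Blood and other immune markers gave other patterns. Of 7 erythroid genes 1, the embryonic globin Hba-x, rose by 0.85 (list median 0.43, mean level 8.79 to 9.13 in WT and 9.36 to 9.68 in KO). Hba-x missed the threshold without KO replicate 1, or without WT replicates 1, 2 or 3 (0.76 to 0.89, adjusted p = 0.0514 to 0.0801). None of 6 macrophage genes passed (median -0.45, or -0.28 at the bound, 5.22 to 5.73 in WT and 4.63 to 5.12 in KO). Of 9 neural retina genes none rose and 3 fell (median -0.25), namely Sox2, Pax6 and Sfrp2, which lens also expresses, and the mean level was 7.37 to 7.51 in WT and 6.85 to 7.43 in KO. The part of any of these cell types in the changes below was not tested.

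**Figure D2:**
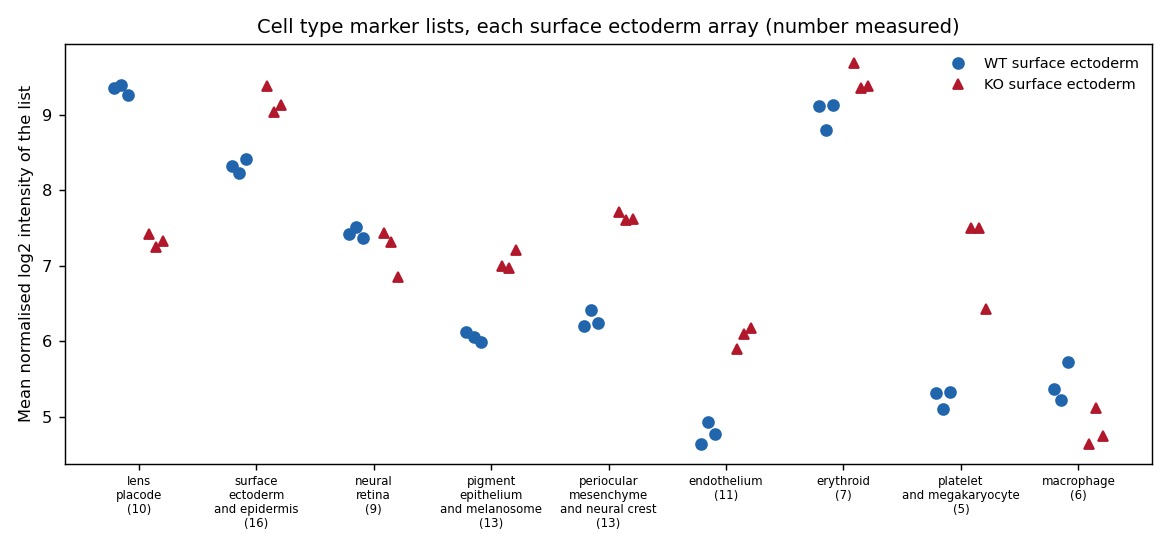
Each point is the mean normalised log2 intensity of a marker list on 1 surface ectoderm array, circles for WT and triangles for KO, with the number of genes measured in brackets. Lens placode markers stand at 9.26 to 9.39 in WT and 7.25 to 7.42 in KO. Surface ectoderm and epidermis, mesenchyme, pigment, endothelial, erythroid and platelet markers are higher on every KO array, and macrophage markers are lower.

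Several transcription factors of the lens placode were lower in KO ectoderm. Of 20 measured lens regulators 8 fell, 4 rose and 8 did not pass (median -0.85), and 12 passed with any 1 array left out. Prox1, a homeobox factor needed for lens fibre elongation, stood at 10.04, 10.34 and 9.82 in WT and 5.19, 5.38 and 5.56 in KO. Maf, which switches on crystallin genes, stood at 9.17, 9.32 and 8.67 and 5.81, 5.32 and 6.48. The groups lay far apart, and the falls were 25.8-fold (adjusted p = 1.9e-06) and 9.08-fold (adjusted p = 0.00089). A second Prox1 probe fell by 2.10 (adjusted p = 0.0025 over all probes).

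Pitx3, a homeobox gene of lens and midbrain neurons, read 7.60, 7.47 and 7.42 in WT and was not detected on any KO array, at least 6.68-fold lower. Foxe3, a forkhead gene that keeps lens epithelium dividing, was likewise detected on 3 WT and 0 KO arrays, at 6.49, 6.05 and 6.24 against 4.27, 4.52 and 4.35, and was at least 2.82-fold lower. Zeb2, a zinc finger repressor needed for lens separation, fell by 2.33, and Mab21l1, needed for lens placode growth in mice, by 1.36. Both also fell in KO vesicle.

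Sox2 and Pax6, which act early in the placode, also fell. Sox2, an activator of early crystallin genes, stood at 10.12, 10.48 and 10.48 in WT and 8.23, 8.40 and 8.32 in KO (change -2.04, adjusted p = 5.9e-06). Pax6, without which no eye forms, stood at 11.49, 11.74 and 11.43 and 10.64, 10.52 and 10.57, a change of -0.98 ± 0.10 (SE; adjusted p = 5.2e-05). No array of one genotype overlapped the other for either gene, and the second Pax6 probe fell by 0.91 (adjusted p = 0.00047 over all probes). Six3, which acts with them in the placode, stood at 8.64, 8.69 and 9.17 and 8.77, 8.55 and 6.99, with overlapping groups (change -0.73, adjusted p = 0.33).

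The 4 regulators that rose are also expressed in retina. Mab21l2, a relative of Mab21l1, stood at 5.06, 5.76 and 5.22 in WT and 8.22, 6.80 and 7.22 in KO (change 2.06, adjusted p = 0.0024), below its 9.43 in KO vesicle. Meis1 and Meis2, homeobox factors upstream of Pax6 in the lens, rose by 0.52 and 0.62, and the SoxC gene Sox11 by 0.60.

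**Figure D3:**
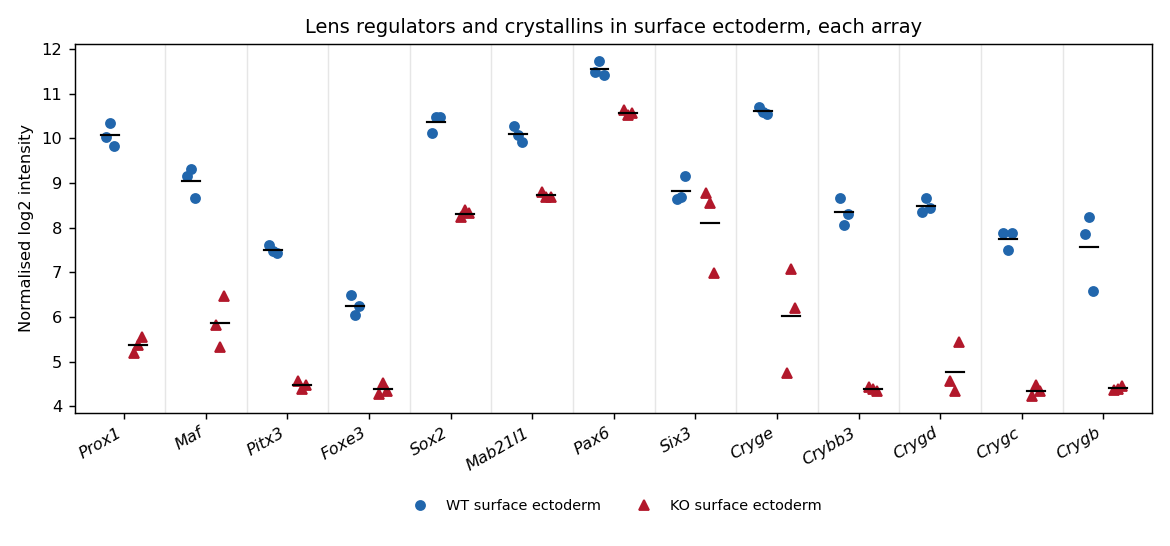
Normalised log2 intensity of lens regulators and crystallin genes on each surface ectoderm array, circles for WT and triangles for KO, with a line at each group's mean. KO and WT arrays do not overlap for any gene shown except Six3, and Pax6 keeps a level above 10 in KO while Pitx3, Foxe3, Crybb3, Crygc and Crygb lie at background.

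Crystallin genes had the highest share of falls among the 33 lists. Of 12 measured crystallin and lens fibre genes 8 fell, none rose and 4 did not pass (median -2.35), and 6 or 7 fell with any 1 array left out, 6 without KO replicate 2, WT replicate 1 or WT replicate 2. Genes of gamma crystallins, abundant in fibre cells, lie side by side on chromosome 1 and resemble each other, so their probes may share signal. The 100 bases before the start sites of the 4 gamma genes that fell and lie together are shown because these 4 genes all fell, with the string CTATATA, searched on both strands, in capitals (RefSeq, GRCm38.p6, chromosome 1, minus strand):
Crygb: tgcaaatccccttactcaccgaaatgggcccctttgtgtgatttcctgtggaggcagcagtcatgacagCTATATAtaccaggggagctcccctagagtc
Crygc: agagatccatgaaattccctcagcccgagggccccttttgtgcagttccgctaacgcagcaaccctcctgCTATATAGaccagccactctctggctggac
Crygd: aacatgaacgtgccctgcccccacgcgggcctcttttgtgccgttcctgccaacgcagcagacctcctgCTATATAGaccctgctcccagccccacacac
Cryge: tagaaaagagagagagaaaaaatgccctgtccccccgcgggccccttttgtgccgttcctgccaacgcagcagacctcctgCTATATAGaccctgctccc
The windows are chr1:65082291-65082390 for Crygb, chr1:65073533-65073632 for Crygc, chr1:65063441-65063540 for Crygd and chr1:65051164-65051263 for Cryge. The capitals begin 31, 30, 31 and 19 bases before the start site in this order. Where 2 matches overlap, one on each strand, the capitals run to 8 letters. Of 32851 windows of 250 bases before a start site, longer than the 100 bases shown here, 1.8% hold this string. The windows of Crygd and Cryge share an unbroken run of 56 bases, that of Crygc shares 18 with each, and that of Crygb shares 8 or 10 with the others. The string was chosen after the sequences were seen, and a match is only a match of letters.

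Cryge stood at 10.70, 10.60 and 10.54 in WT and 4.75, 7.09 and 6.20 in KO. Its KO values spread widely but stayed below every WT value, and it fell 24.2-fold (adjusted p = 0.00038). Crygd, at 8.36, 8.67 and 8.43 and 4.56, 4.33 and 5.43, fell 13.1-fold and was detected on 1 KO array. The probes of Crygc and Crygb were not detected on any KO array, and these genes were at least 7.97-fold and 6.96-fold lower. Crybb3, a beta crystallin, stood at 8.67, 8.07 and 8.32 and 4.43, 4.38 and 4.34, at least 12.1-fold lower. Its dimmer second probe, at a mean of 5.01 in WT, fell by 0.35 and did not pass. Cryba1, another beta crystallin, stood at 6.66, 6.90 and 7.33 and 4.33, 6.51 and 5.999 and did not pass (change -1.35, adjusted p = 0.16).

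For the remaining 3 members that fell, leaving out 1 array could end the call. Mip, the water channel of fibre cells, fell by 2.48, Crygn, a distant gamma crystallin, by 2.21, and Cryab, a small heat shock protein, by 1.44. Mip was not called without KO replicate 2, or without WT replicate 1 (-2.12 to -2.32, adjusted p = 0.0563 to 0.0634). Crygn did not pass without KO replicates 1 or 3, or without WT replicates 2 or 3 (-1.63 to -2.18, adjusted p = 0.0667 to 0.0826). Cryab missed the threshold without KO replicate 2, or without WT replicates 1, 2 or 3 (-1.13 to -1.51, adjusted p = 0.0513 to 0.102).

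Genes induced by FGF receptor and ERK signalling, which acts in lens placode formation and later fibre differentiation, were lower in part. Of 16 measured genes of this response 9 fell, none rose and 7 did not pass (median -1.45), and 8 to 10 passed with any 1 array left out. The ETS factors Etv1 and Etv5, transcribed on FGF signalling, stood at 10.10, 10.03 and 9.96 and 8.78, 9.16 and 9.44 in WT and at 4.87, 5.64 and 5.83 and 4.46, 4.58 and 5.61 in KO. Etv1 fell 24.0-fold (adjusted p = 1.9e-06). Etv5, detected on 1 KO array, fell by 4.24 on the log2 scale (adjusted p = 8.8e-05), and its second probe by 3.87 (adjusted p = 6.9e-05 over all probes).

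Of the feedback inhibitors of the pathway, the ERK phosphatases Dusp4 and Dusp6 fell by 3.37 and 1.45, Spry2, which dampens receptor signalling, by 2.35, and its relative Spred3 by 1.45. Spred3 was not called without KO replicates 1, 2 or 3, or without WT replicates 1 or 2 (-1.19 to -1.59, adjusted p = 0.050 to 0.111). The other 2 Spred genes did not pass, and nor did the inhibitor gene Il17rd (change 0.64, adjusted p = 0.2). Egr1, an immediate early gene of ERK, stood at 9.78, 9.20 and 9.02 in WT and 5.44, 6.65 and 7.18 in KO (change -2.91, adjusted p = 0.0015). Phlda1 fell by 1.69, and Ccnd1, the cyclin D1 gene, by 1.18. Etv4, the third ETS gene of the group, was detected on 3 WT and no KO arrays and did not pass (at least 1.39-fold lower, adjusted p = 0.063). Among 17 genes of the FGF ligand and receptor list the calls were near the 4.97% of all genes. None fell, 1 rose and 16 did not pass (median 0.27), the receptor gene Fgfr1 at -0.79 (adjusted p = 0.19) among the 16. The one that rose was the receptor gene Fgfr2, by 0.51. Fgfr2 did not pass without KO replicate 2, or without WT replicates 1 or 3 (0.42 to 0.51, adjusted p = 0.0707 to 0.0950). In KO vesicle 7 of the 16 response genes fell too.

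Among BMP pathway genes the calls were near the share over all genes. Of 14 measured BMP targets 1 fell and 13 did not pass (median -0.25), and of 18 receptors and transducers none passed (median 0.03), against 4.97% of all genes that passed and 2.41% that were lower. Changes above 0 were seen in 5 of the 14 targets, up to 1.29, and none of these passed. Id1, a helix-loop-helix inhibitor switched on by BMP, stood at 8.26, 8.001 and 8.26 in WT and 7.19, 6.02 and 6.80 in KO, and its relative Id3 at 7.31, 7.39 and 7.43 and 6.47, 6.56 and 6.59. For both, every KO value lay below every WT value, yet neither passed (changes -1.51 and -0.84, adjusted p = 0.071 and adjusted p = 0.13). Tbx3, a T-box factor, was detected on 3 WT and no KO arrays and did not pass (at least 1.87-fold lower, adjusted p = 0.077). The one target that fell was Id2, by 0.65. Its 2 other kept probes also fell, by 0.85 and 1.94, and both passed over all probes. Id2 missed the threshold without KO replicates 2 or 3, or without WT replicates 1 or 2 (-0.57 to -0.63, adjusted p = 0.0553 to 0.0831).

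Among 14 BMP and TGF-beta ligands and antagonists 1 fell and 1 rose (median 0.15, or 0.04 at the bound), against 2.41% of all genes lower and 2.57% higher. Gdf6, a BMP family ligand needed for eye growth, stood at 7.29, 8.02 and 7.52 and 4.51, 5.78 and 5.19 and fell by 2.45 (adjusted p = 0.0018), with no overlap. Bmp7, a ligand also needed for lens formation in mice, rose by 1.56. Bmp7 was not called without KO replicates 1 or 2, or without WT replicates 2 or 3 (1.11 to 1.64, adjusted p = 0.0762 to 0.132).

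Several Wnt ligand genes rose. Of 11 measured ligands and R-spondins 5 rose, none fell and 6 did not pass (median 1.03), against 2.57% of all genes higher. Without KO replicate 2 or WT replicate 1 the number was 3. Wnt6, a ligand of surface ectoderm outside the lens, gave no detected signal in WT and stood at 8.64, 8.005 and 8.57 in KO, at least 12.5-fold higher (adjusted p = 1.9e-06), with 4.41 in KO vesicle. Rspo1, a secreted enhancer of Wnt signalling, stood at 5.04, 4.46 and 4.86 in WT and 6.90, 7.50 and 6.46 in KO (change 2.17, adjusted p = 0.0011). Wnt7b rose by 1.13 to 9.85 ± 0.40 in KO, where the vesicle stood at 11.97. Wnt2 and Wnt9b rose by 1.48 and 1.03. Wnt2 did not pass without KO replicate 2, or without WT replicate 1 (1.35 to 1.39, adjusted p = 0.0560 to 0.0575). Wnt9b missed the threshold when any 1 of the 6 arrays was left out (0.89 to 1.12, adjusted p = 0.0513 to 0.119).

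Wnt target genes changed in both directions. Of 17 measured targets 4 rose, 1 fell and 12 did not pass (median 0.51, or 0.39 at the bound). Axin2, the feedback inhibitor used as a readout of beta-catenin signalling, stood at 4.54, 5.13 and 4.56 in WT and 7.64, 7.36 and 6.72 in KO, without overlap (change 2.50, adjusted p = 0.001). The one target that fell was Ccnd1, which is also an ERK response gene. Lef1, a DNA-binding partner of beta-catenin, and the feedback gene Znrf3 rose by 1.82 and 1.55, and the feedback gene Nkd2, undetected in WT, was at least 2.66-fold higher. Lef1 was not called without KO replicates 1 or 2, or without WT replicates 1 or 2 (1.68 to 1.77, adjusted p = 0.050 to 0.0614). Znrf3 did not pass when any 1 of the 6 arrays was left out (1.39 to 1.64, adjusted p = 0.0631 to 0.119). Nkd2 missed the threshold without KO replicates 2 or 3, or without WT replicates 1, 2 or 3 (1.55 to 1.75, adjusted p = 0.0669 to 0.0929). Without KO replicate 2 or WT replicate 1 only 2 targets passed, Axin2 and Ccnd1. Of 26 receptors and secreted modulators none rose and 3 fell (median 0.03), the secreted antagonists Sfrp2 and Dkk3 by 0.98 and 0.83 and the receptor gene Ror1, undetected in KO, at least 1.83-fold. Ror1 was not called without KO replicates 1 or 2, or without WT replicates 1, 2 or 3 (-0.99 to -1.15, adjusted p = 0.0522 to 0.0873).

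Notch and Hedgehog genes changed at single members. Jag1, the Notch ligand of the lens, stood at 10.10, 10.12 and 10.17 in WT and 6.99, 6.67 and 6.23 in KO, with a gap of over 3 log2 units between the groups, and fell 11.3-fold (adjusted p = 5.9e-07). Dlk1, a non-canonical Notch ligand and imprinted gene, rose by 2.74. The other 15 of 17 Notch genes did not pass, the target Hey1 at -1.53 (adjusted p = 0.092) among them. The share of the list that passed was 11.8%, against 4.97% of all genes. Of 11 Hedgehog genes 3 rose and none fell (median 0.56, or 0.35 at the bound), but without KO replicate 3 or WT replicate 1 only 1 did, Gli3. Gli3, mainly a repressor of Hedgehog targets, rose by 1.06, the activator gene Gli2 by 1.496 and the co-receptor gene Gas1 by 0.87. Gli2 did not pass without KO replicates 2 or 3, or without WT replicates 1 or 2 (1.21 to 1.59, adjusted p = 0.0575 to 0.120). Gas1 missed the threshold without KO replicates 1 or 3, or without WT replicates 1 or 3 (0.75 to 0.86, adjusted p = 0.0732 to 0.0917).

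**Figure D4:**
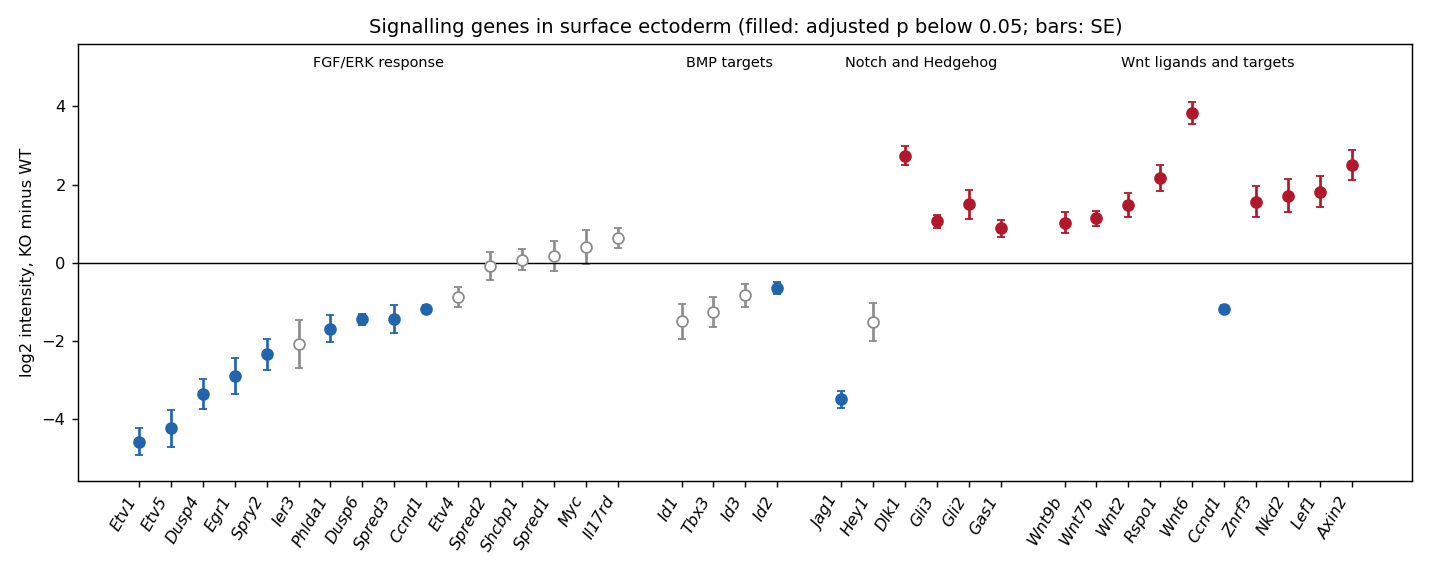
Log2 change (KO minus WT surface ectoderm) of signalling genes with its standard error from limma. Filled points passed adjusted p 0.05 and open points did not. All 16 measured FGF and ERK response genes are shown, 12 of them below 0 and down to -4.59. Of the other lists only genes named in the text are shown. The BMP targets shown lie below 0 and are mostly open, and the Wnt genes shown lie above 0 except Ccnd1. Of all 14 measured BMP targets 5 had a change above 0, and these are not shown.

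The Iroquois homeobox genes Irx2, Irx3 and Irx5 were higher. Of 18 preplacodal and placode genes 3 rose and none fell (median 0.44, or 0.32 at the bound), and of 17 Meis, Pbx, Irx and Zic genes 5 rose and none fell (median 0.09). These counts of 3 and 5 held with any 1 array left out. Irx3 and Irx5, which pattern ectoderm and neural tissue, stood at 5.42, 5.05 and 5.71 and 5.87, 6.52 and 5.24 in WT and at 8.15, 8.67 and 7.01 and 8.49, 8.67 and 8.62 in KO. They rose by 2.55 and 2.72 (adjusted p = 0.002 and adjusted p = 0.00047). Their relative Irx2 and Eya2, a co-activator of homeobox proteins in placodes, were undetected in WT and at least 2.05-fold and 2.56-fold higher.

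Some genes of epidermis were higher while most did not pass. Of 17 epidermal regulators 3 rose, 1 fell and 13 did not pass (median 0.54), and of 14 keratin and desmosome genes 2 rose (median 0.47). Of 16 surface ectoderm and epidermis markers 5 rose, none fell and 11 did not pass (median 0.44). Their mean level was 8.23 to 8.41 in WT and 9.03 to 9.38 in KO. Trp63, the p63 gene that commits ectoderm to stratified epidermis, stood at 6.26, 5.36 and 6.39 in WT and 8.60, 8.29 and 8.85 in KO, and its target Perp, a desmosome protein, at 5.32, 4.88 and 7.38 and 9.67, 8.68 and 9.05. Neither overlapped between the genotypes, with changes of 2.58 (adjusted p = 0.00059) and 3.27 (adjusted p = 0.0041). The keratin gene Krt7 rose from 7.01 ± 0.45 to 10.03 ± 0.07 (SD, n = 3 each; adjusted p = 0.00013). Krt18 at 0.51 (adjusted p = 0.18) did not pass. All 4 of these genes were dimmer in KO vesicle than in KO ectoderm.

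For the other epidermal genes that passed, leaving out 1 array could end the call. The AP-2 gene Tfap2b and the desmosomal plaque gene Ppl rose by 1.49 and 1.88, and the epithelial ETS gene Elf3 fell by 1.17. All 5 other kept Tfap2b probes rose too, 2 of them passing over all probes, and the second Ppl probe rose by 1.75 and passed. The second Elf3 probe differed by 0.02 in the opposite direction. Tfap2b was not called without KO replicate 1 (1.26, adjusted p = 0.0548). Ppl did not pass without KO replicate 2, or without WT replicates 2 or 3 (1.55 to 1.76, adjusted p = 0.0621 to 0.0870). Elf3 missed the threshold without KO replicates 2 or 3, or without WT replicates 1 or 3 (-0.99 to -1.17, adjusted p = 0.0562 to 0.0908).

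**Figure D5:**
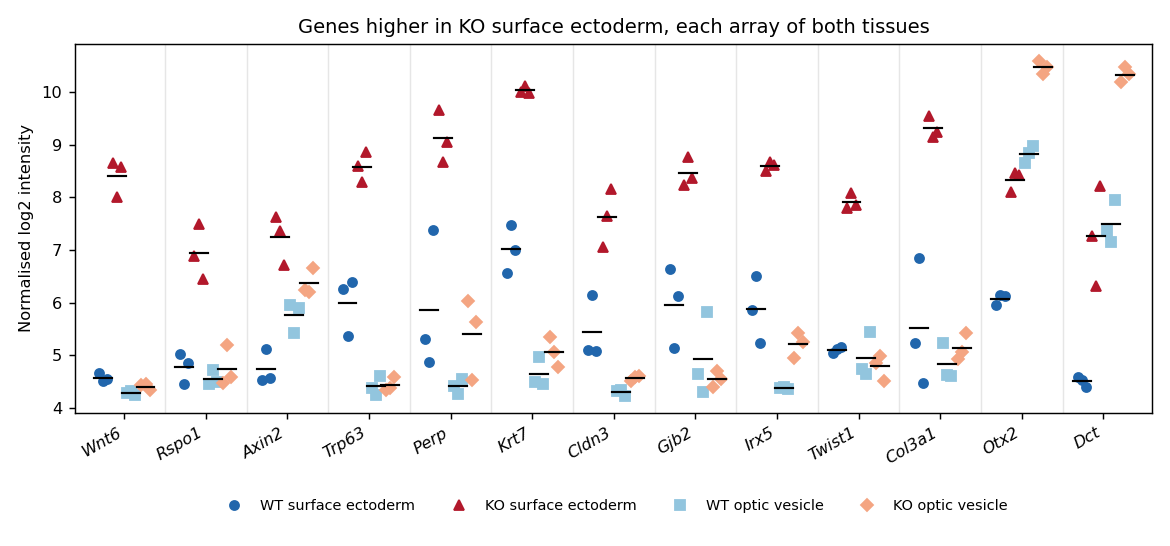
Normalised log2 intensity of genes higher in KO surface ectoderm, on each array of both tissues, with a line at each group's mean. KO ectoderm (triangles) lies above WT ectoderm (circles) for every gene. Otx2 and Dct are brightest in KO optic vesicle (diamonds), the other genes in KO surface ectoderm.

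Cadherins differed member by member. Of 41 cadherin, claudin and other junction genes 5 rose, 3 fell and 33 did not pass (median 0.12). Cdh2, N-cadherin, which the lens placode makes beside E-cadherin, stood at 8.50, 7.90 and 7.59 in WT and 4.45, 5.01 and 4.53 in KO, and Cdh6, undetected in KO, was at least 4.47-fold lower. Cdh2 was detected on 1 KO array and fell by 3.33 (adjusted p = 4.7e-05), while a dimmer Cdh2 probe, detected on 1 array of each genotype, differed by -0.23 (adjusted p = 0.65 over all probes). Cdh1, E-cadherin, differed by -0.70 and did not pass (adjusted p = 0.083). Cadm1, a neural and epithelial adhesion gene, fell by 1.07. Among genes that rose, the tight junction gene Cldn3 went from 5.44 ± 0.61 to 7.62 ± 0.55 and the gap junction gene Gjb2 from 5.97 ± 0.76 to 8.45 ± 0.28 (SD, n = 3 each). Cdh11, a cadherin of mesenchyme, rose by 2.48, in the samples in which the mesenchyme list was also higher. P-cadherin (Cdh3) rose by 1.98 and the vessel claudin gene Cldn5 by 2.14. Cdh3 was not called without KO replicates 1, 2 or 3, or without WT replicates 1 or 2 (1.49 to 2.10, adjusted p = 0.0624 to 0.143). Cldn5 did not pass without WT replicate 1 (1.76, adjusted p = 0.0618).

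Matrix genes were among the largest falls. Col13a1, a collagen anchored in the cell membrane, stood at 10.40, 10.62 and 10.59 in WT and 4.41, 5.17 and 5.14 in KO and fell by 5.63 (adjusted p = 5.9e-07), the largest fall of any gene that passed. Has2, which makes hyaluronan, stood at 9.88, 9.998 and 9.99 and 5.90, 5.90 and 5.95, a 16.4-fold fall (adjusted p = 1.6e-06). The groups were separated by more than 3 log2 units for both. Tenascin C (Tnc) fell by 3.21, versican (Vcan), a proteoglycan that binds hyaluronan, by 1.95, and the integrin gene Itgb8 by 2.37. The 2 other, dimmer kept Itgb8 probes fell by 0.34 and 0.11 and did not pass. Of 37 laminin, integrin and other matrix genes 6 fell, 3 rose and 28 did not pass (median 0.09), with 5 passing without WT replicate 2.

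Of 26 collagen genes 4 rose, 2 fell and 20 did not pass (median 0.19), and 5 to 10 passed with any 1 array left out. The basement membrane collagen Col4a5 fell by 1.89, whereas Col18a1, the source of endostatin, and the cartilage and eye collagen Col9a1 rose by 1.81 and 1.57. Col3a1 had the largest rise, by 3.79 (adjusted p = 0.00038), and is on the mesenchyme list too. Of 29 genes of apical constriction and cell shape, the process by which a placode bends, 1 rose, 1 fell and 27 did not pass (median 0.10). The share that passed, 6.9%, was near the 4.97% of all genes, and without KO replicate 2 or WT replicate 1 none passed. The small GTPase gene Rac3 rose by 1.43 and the myosin light chain gene Myl6 fell by 0.43. Rac3 missed the threshold without KO replicate 2, or without WT replicates 1 or 2 (1.19 to 1.41, adjusted p = 0.0510 to 0.0704). Myl6 was not called without KO replicates 2 or 3, or without WT replicates 1 or 3 (-0.36 to -0.42, adjusted p = 0.0729 to 0.123).

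The receptor genes Pdgfra, Ntrk2 and Ednrb were among the falls, while Fgfr2 and Nrp1 rose. Pdgfra, the PDGF receptor alpha gene, stood at 10.21, 10.22 and 10.26 in WT and 7.63, 7.85 and 7.73 in KO and fell 5.63-fold (adjusted p = 0.00029). Its ligand gene Pdgfa stood at 9.99, 9.37 and 9.98 and 11.53, 11.30 and 11.40 and rose by 1.63 (adjusted p = 0.00015). The neurotrophin receptor gene Ntrk2, at 9.38, 9.96 and 9.91 and 4.97, 4.61 and 4.39, fell by 5.09 (adjusted p = 5.9e-07), but was detected on 1 KO array and its 2 dimmer probes did not pass (-0.14 and -1.20). Ednrb, an endothelin receptor gene, fell by 3.71, with KO replicate 1 at 7.37 and the others at 4.90 and 5.13.

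Of 25 PDGF, IGF and imprinted growth genes 9 rose, 2 fell and 14 did not pass (median 0.21), and 8 to 11 passed with any 1 array left out. Igf1, a growth hormone mediator, stood at 4.69, 4.81 and 5.50 in WT and 8.67, 7.34 and 8.33 in KO and rose by 3.11 (adjusted p = 0.003). The binding protein genes Igfbp2 and Igfbp4 rose by 1.22 and 1.46, and the imprinted retrotransposon-derived gene Peg10 by 2.10. Igf2r, which clears IGF2, fell by 0.80, while its dimmer second probe fell by 0.13 and did not pass. Igf1, Dlk1 and Igfbp4 are known from mesenchyme too, whose markers were higher on the same arrays.

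Of 51 axon guidance genes, 4 rose, 2 fell and 45 did not pass (median 0.19), against 4.97% of all genes that passed, and 4 passed without KO replicate 3 or WT replicate 2. The semaphorin receptor Nrp1, detected on 1 WT array, rose by 1.66, and its relative in function Plxnd1, undetected in WT, was at least 3.98-fold higher. Both are also made by vessels, whose markers were higher on the same arrays. Efnb2, an ephrin, fell by 1.35. Of 15 retinoic acid genes 2 rose and none fell (median 0.25), and 1 passed with any 1 array left out, Cyp1b1. Cyp1b1, an enzyme that can make retinoic acid, rose by 1.67 in ectoderm and fell by 3.75 in vesicle. Of 8 neuronal genes 2 fell, the LIM homeobox gene Isl1 by 1.56 and the proneural gene Neurog2, undetected in KO, at least 1.72-fold. Neurog2 did not pass without KO replicate 3, or without WT replicates 1 or 2 (-0.93 to -1.15, adjusted p = 0.0597 to 0.0664). Crabp1, which binds retinoic acid in the cell, rose by 1.29. Crabp1 missed the threshold when any 1 of the 6 arrays was left out (1.14 to 1.40, adjusted p = 0.0503 to 0.118).

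Sterol and fatty acid synthesis genes had changes mostly below 0. Of 26 measured genes 6 fell, none rose and 20 did not pass, and 23 of the 26 had a change below 0 (median -0.58, against 0.02 for all genes). Between 4 and 5 passed with any 1 array left out, 5 without KO replicate 1 and 4 without any other array. Insig1, a sterol-regulated brake on the pathway, stood at 10.31 ± 0.17 in WT and 8.69 ± 0.52 in KO (SD, n = 3 each), and Scd1, a fatty acid desaturase gene, at 8.57, 8.92 and 9.11 and 7.71, 6.95 and 7.20. The changes were -1.62 (adjusted p = 0.00053) and -1.58 (adjusted p = 0.00049). Hsd17b7 and Idi1, enzymes of cholesterol synthesis, fell by 1.03 and 0.69. The other 2 that fell were the synthesis enzymes Msmo1, by 1.07, and Fdps, by 0.78. Msmo1 was not called when any 1 of the 6 arrays was left out (-0.97 to -1.15, adjusted p = 0.0554 to 0.125). Fdps did not pass without KO replicates 2 or 3, or without WT replicates 1, 2 or 3 (-0.73 to -0.82, adjusted p = 0.0523 to 0.0730). For Insig1, Scd1, Hsd17b7 and Idi1 no array of one genotype overlapped the other.

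Windows of 250 bases before the start sites of 3 of these genes are shown because sterol genes are known to be read by SREBP together with NF-Y, which binds CCAAT; the letters CCAAT on either strand (ATTGG on the other) are in capitals (RefSeq, GRCm38.p6):
Idi1: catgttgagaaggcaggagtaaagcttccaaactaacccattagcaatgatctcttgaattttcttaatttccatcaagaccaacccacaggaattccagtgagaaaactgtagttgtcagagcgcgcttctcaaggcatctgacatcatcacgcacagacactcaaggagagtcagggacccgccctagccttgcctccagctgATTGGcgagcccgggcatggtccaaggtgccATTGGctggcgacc
Hsd17b7: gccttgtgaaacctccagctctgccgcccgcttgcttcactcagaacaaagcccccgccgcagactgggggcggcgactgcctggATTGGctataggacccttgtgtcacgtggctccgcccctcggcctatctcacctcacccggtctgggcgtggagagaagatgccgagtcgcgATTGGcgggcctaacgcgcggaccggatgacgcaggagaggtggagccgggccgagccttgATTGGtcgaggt
Insig1: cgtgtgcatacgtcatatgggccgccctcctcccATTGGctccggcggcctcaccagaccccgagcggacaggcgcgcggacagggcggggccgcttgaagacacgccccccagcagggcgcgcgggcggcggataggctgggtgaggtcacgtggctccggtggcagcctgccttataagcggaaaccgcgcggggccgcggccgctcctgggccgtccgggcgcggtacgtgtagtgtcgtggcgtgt
They cover chr13:8885356-8885605 on the plus strand for Idi1, chr1:169969206-169969455 on the minus strand for Hsd17b7, and chr5:28071162-28071411 on the plus strand for Insig1. Of 26 measured genes of the list 21 had a window, 18 of which held CCAAT in at least 1 window, against 37.5% of 27025 genes. Of 12 measured cholesterol enzymes with a window 12 held it. The matches are letters only and say nothing of binding in these samples.

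Oxygen and glucose genes split. Of 28 hypoxia and glycolysis genes 3 fell, 1 rose and 24 did not pass (median -0.02), and 4 passed with any 1 array left out. The share that passed was 14.3%, against 4.97% of all genes. Egln3, an oxygen sensor that hypoxia itself induces, stood at 9.30, 9.83 and 9.53 in WT and 5.61, 7.27 and 6.73 in KO (change -3.02, adjusted p = 0.008). Its 2 other, dimmer kept probes fell by only 0.22 and 0.19 and did not pass. The vessel growth factor gene Vegfa fell by 0.94. Of the glucose transporters, Slc2a1 fell by 0.62 and Slc2a3 rose by 2.01, from 9.70 ± 0.24 to 11.71 ± 0.14 (SD, n = 3 each). No glycolytic enzyme gene of the list passed.

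Among cell cycle and cell death genes the calls were near the 4.97% of all genes. Of 33 replication and mitosis genes none passed (median -0.08), and of 23 cyclins and G1/S regulators 1 fell, Ccnd1 (median 0.08). Of 25 apoptosis and p53 genes 1 rose and none fell (median 0.04), the survival gene Bcl2, by 1.02. None of its 7 other kept probes passed, and 4 of them differed in the opposite direction (-0.63 to -0.02). Bcl2 missed the threshold without KO replicates 1 or 2, or without WT replicates 1 or 2 (0.87 to 1.08, adjusted p = 0.0539 to 0.105). Of 17 heat shock and unfolded protein genes Hsph1 rose by 0.58 and Ddit4, a stress-induced mTOR inhibitor, fell by 1.02. Of 18 Hippo genes 2 rose and 1 fell (median 0.18), among them the YAP target Axl by 3.36 and the DNA-binding partner Tead4 by 1.11. The co-regulator gene Vgll4 fell by 1.06. Vgll4 was not called when any 1 of the 6 arrays was left out (-0.92 to -1.14, adjusted p = 0.0670 to 0.140).

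Large changes also appeared outside the lists. Slc38a8, an amino acid transporter gene of the eye, had the largest rise, 5.91, 5.06 and 5.59 in WT against 9.94, 10.25 and 10.57 in KO (change 4.73, adjusted p = 1.4e-08), and was brighter in the vesicle of both genotypes than in WT ectoderm (10.13 in WT and 12.04 in KO vesicle). Trim29, a gene of stratified epithelia, stood at 4.37, 4.95 and 6.53 in WT and 9.51, 9.99 and 9.99 in KO, and stayed at 4.91 in KO vesicle. Masp1, a protease of the complement lectin pathway, was at least 14.7-fold higher. All 3 are among the 20 largest rises, which were picked from genes without overlap, so the groups did not overlap for any of them.

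Further genes with rises in this range were Prss35, Lypd2, Spo11 and Lrrc3 (by 3.55, 3.47, 3.26 and 3.23), and Asb4 and Clic6, undetected in WT, at least 10.3-fold and 9.45-fold higher. Inmt, a methyltransferase gene, rose by 3.23 and was brighter in KO vesicle (10.51), and the endocytic adaptor gene Dab2 rose by 3.06. Among falls, Spink1, a trypsin inhibitor, and Prokr1, a prokineticin receptor, were not detected on any KO array and at least 19.6-fold and 19.4-fold lower. Spon2, a matrix protein gene, stood at 10.87, 10.80 and 10.74 and 5.57, 7.01 and 6.46, and the milk protein gene Csn3 at 9.60, 9.55 and 9.77 and 5.05, 4.87 and 6.32. They fell by 4.46 and 4.23, and Sowaha, which also fell in vesicle, by 3.85. Elovl3, a fatty acid elongase gene, fell by 3.50, with KO replicate 2 at 8.10 and the others at 5.18 and 4.29.

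The ectoderm and vesicle arrays were set side by side for the same genotype contrast. In vesicle 215 genes passed (1.80%), and 70 genes passed in both tissues, 66 of them in the same direction. The share was 11.8% of the ectoderm genes and 32.6% of the vesicle genes. Sox2, Etv1, Etv5, Dusp4, Dusp6, Spry2, Gdf6 and Zeb2 fell and Otx2, Gli3, Pdgfa, Slc2a3 and Fgfr2 rose in both. The difference between the tissues, fitted with replicate number within genotype as a block, passed in 89 genes (0.746%), and in 168 without the block. The labels do not state that arrays of one number share an embryo, and residuals of same-numbered ectoderm and vesicle arrays correlated at -0.031 to 0.023. Of the 89 genes 68 passed in ectoderm. Prox1, Pitx3, Pax6, Cryge, Jag1, Cdh2, Has2 and Col13a1 were among those with the larger fall in ectoderm, and Wnt6, Trim29, Twist1, Lypd2 and Masp1 among those with the larger rise. Of the 306 genes that rose, 73 had a higher mean in the vesicle of KO embryos than in their ectoderm, and of the 287 that fell, 63 had a higher mean in WT vesicle than in WT ectoderm. The same counts over all genes tested were not made, so 73 and 63 cannot be called many or few. The part that captured vesicle tissue has in these 73 genes was not tested.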

How the data were processed

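The members and gene lists were chosen with earlier results of these data known. The deposited scanner table holds, per the file headers, a mean intensity over beads for each probe and array, the standard error of that intensity, a bead number (other) and a detection p-value. Per the submitters' processing notes GenomeStudio was used, with no version. A deposited matrix of processed intensity values was an alternative: rank correlation of a column with the scanner intensities of the array it is named for was 1, against 0.867 at most with others, which sets its direction. It is linear with column medians of 9.40 to 9.42, and how it was centred and corrected for background is not stated.

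Background correction from the detection p, quantile normalisation and log2 (offset 16) were done by neqc in limma 3.58.1, R 4.3.3. Of 45281 probes 34885 had 1 gene symbol, 18 several and 10378 none, and probes without exactly 1 stayed unnamed. Probes detected (p below 0.05) on at least 3 of 12 arrays were kept (24978), and a gene is its kept probe with the highest mean. KO was set against WT by lmFit and eBayes (trend) over the 12 arrays, two-sided, p adjusted by Benjamini and Hochberg's method. The tissue difference had replicate number within genotype as a fixed block, as if same-numbered ectoderm and vesicle arrays shared an embryo, which the labels do not state. Residuals of same-numbered KO and WT arrays correlated at 0.0094, -0.0069 and -0.024. With 3 arrays per group this cannot settle whether the numbers pair the samples, and the contrast of KO with WT had no block. Where a probe was detected on no array of a group, "at least N-fold" divides the bright group's mean by a floor, on each dim array the probe's value or the dimmest detected signal, whichever was higher. The fits were tested on simulated data. Depth is not defined for arrays, and 3 per group limit the precision.

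Genes named are Bmp4, the 20 largest non-overlapping changes each way, called members of the lists, marker genes and core lens genes, with some that did not pass. Of members that passed, those whose call ended when 1 array was left out appear where needed to account for a list; among the 20 largest falls this leaves out Rhox5.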

Additional observations from a re-analysis of the deposited data

Results flagged for a closer look

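The following named genes had a change in surface ectoderm that differed from their change in optic vesicle (limma interaction with replicate number within genotype as a block, adjusted p = 0.000171 to 0.049). Each value is the KO minus WT difference in ectoderm minus that in vesicle, on the log2 scale, so a negative value is a larger fall or smaller rise in ectoderm.

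Among lens regulators the value was -3.49 for Prox1, -3.09 for Pitx3, -1.86 for Foxe3, -1.05 for Pax6 and 0.79 for Sox11. Among crystallins it was -4.93 for Cryge, -4.08 for Crygd, -3.75 for Crybb3, -3.37 for Cryba1 and -3.01 for Crygc. Cryba1 itself did not pass in ectoderm. For signalling genes it came to -2.74 for Etv1, -2.80 for Jag1, -1.06 for Fgfr2, 3.70 for Wnt6, 1.73 for Dlk1, 2.01 for Igfbp4, -3.31 for Pdgfra, -4.00 for Ntrk2 and -3.07 for Prokr1.

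Adhesion and matrix genes gave -3.54 for Cdh2, 3.64 for Cdh11, -3.81 for Col13a1, 1.78 for Col18a1, -3.84 for Has2, -2.99 for Tnc and -5.10 for Spon2. Cyp1b1, with 5.42, rose in ectoderm and fell in vesicle. Others were 2.95 for Twist1, 1.98 for Bcl2, -0.89 for Slc2a1, 2.82 for Slc38a8, 4.19 for Trim29, 2.93 for Masp1, 3.47 for Lypd2, 3.70 for Prss35, 3.13 for Spo11 and -3.48 for Csn3. Of the 37 genes 5 passed in both tissues: Slc38a8 and Fgfr2 rose in both, Etv1 and Col13a1 fell in both, and Cyp1b1 moved in opposite directions. In 12 of the 37 the probe was detected on no array of at least 1 of the 4 groups, and the value is then a fitted difference against background, not a measured size.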

How the results depend on the processing

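The number of genes that passed, 593, stayed within 1.5 times under other background corrections, the authors' processed values, a filter on ectoderm arrays, the mean of a gene's probes, slide as a block and no filter on dim probes, under which fewer of those that passed rose (203 against 306). It was 240 (127 higher, 113 lower) with the ectoderm arrays alone, 339 (174 and 165) with array weights, 19 (6 and 13) on slide 1, and 115 (64 and 51) on slide 2. With single arrays left out it ran from 376 to 511, with 187 to 273 higher and 189 to 240 lower. With a replicate block 477 genes passed, 459 of them among the 593. No gene of the 593 changed sign under any of these except 7 with the mean of all probes. Bmp4 turned to 0.063 with the mean of its probes (adjusted p = 0.96). The tissue difference passed in 168 genes with no replicate block (number within genotype) and in 127 to 163 with single arrays left out, which also have no block. Among the 143 named genes that passed, the call was lost in 13 under the replicate block, 16 with no filter, 20 with array weights and 20 with the mean of probes. It was lost in 36 with the ectoderm arrays alone and in 126 on slide 1 alone, the most of these settings. Of the 143 named genes that passed, 70 had another kept probe, which passed in the same direction in 32 and in the opposite direction in none, though 5 genes had another probe of opposite sign that did not pass. The cause of these differences was not tested. Laser-cut and amplified RNA, 3 arrays per group and possible pooling limit every value, and a gene near background has a bound, not a level.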
